A study of Mus musculus with 2 samples.

Results

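Mir335, Mir296, Mir298, Mir675 and Mir483 are mouse microRNA (miRNA) genes in or beside imprinted loci other than the Dlk1-Dio3 and Sfmbt2 clusters. They were selected by name and locus, with their levels in these libraries already known, so their levels and ratios are given as a description with no test. They are 5 of the 2202 miRNA genes counted, and all 5 had at least 10 counts summed over the libraries. The data are 2 microRNA-seq libraries from a single group of males, strain B6CASTF1/J (the F1 cross of C57BL/6J with CAST/EiJ), aged 4 days, with left cerebral cortex as the labelled tissue. The labels give neither a treatment nor a further genotype. The libraries are labelled biological replicates 2 and 1 and are called library 2 and library 1 here. Both labels cite 1 donor identifier, so the labels do not settle whether the libraries come from different animals.

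An imprinted gene is transcribed mainly from the copy inherited from 1 parent. Mest, Igf2 and the Gnas antisense RNA Nespas are known as paternally expressed in mouse, and H19 as maternally expressed. Igf2, a fetal growth factor, and H19, a long noncoding RNA, share a control region and are abundant in embryonic mesoderm, as is Mest. In the brain, Igf2 is best known from the choroid plexus and the leptomeninges. The allele assigned to each miRNA is this background, and whether it holds in the tissue of these libraries was not measured. Paternal, maternal and oppositely imprinted below name the assigned locus, not a measured allele. The count tables do not separate the maternal and paternal alleles, although the cross carries 2 distinguishable genomes.

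The mature sequences are shown because the counts cover whole hairpin genes, so each value below can come from either arm. They are from RefSeq (GRCm38.p6, the assembly also named mm10), 5′ to 3′, with the seed (bases 2 to 8) in capitals.
miR-335-5p: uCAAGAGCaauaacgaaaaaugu
miR-335-3p: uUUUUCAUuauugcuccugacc
miR-296-5p: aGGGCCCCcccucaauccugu
miR-296-3p: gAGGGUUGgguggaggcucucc
miR-298-5p: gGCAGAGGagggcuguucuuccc
miR-298-3p: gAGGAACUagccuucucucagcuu
miR-675-5p: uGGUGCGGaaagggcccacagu
miR-675-3p: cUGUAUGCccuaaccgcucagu
miR-483-5p: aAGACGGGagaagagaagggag
miR-483-3p: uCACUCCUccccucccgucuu
All 5 genes matched the RefSeq table, and their 10 mature sequences have 10 distinct seeds. None of these seeds occurs in another gene's entry among the 1738 mature sequences of that table, so the members form no seed family. The longest stretch that a member's hairpin shares with any other of the 1005 hairpins is 12 bases (Mir298). Hairpin GC content was lowest in Mir335 at 42.9%, and it was 53.7% in Mir298, 58.9% in Mir483, 63.1% in Mir675 and 63.3% in Mir296, against a median of 51.7% over all hairpins.

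The members lie at 3 chromosomal sites (mm10, GENCODE M21). Mir335 (ENSMUSG00000065501.1, chr6:30741299-30741396, plus strand) is in an intron of Mest. Mir296 (ENSMUSG00000065521.1, chr2:174267047-174267125) and Mir298 (ENSMUSG00000065410.1, chr2:174267504-174267585) are on the minus strand with 378 bases between them. No annotated gene of this release spans them. They lie 13.7 kb (from Mir298) and 14.1 kb (from Mir296) beyond the annotated 3′ end of Nespas, on the same strand. Mir675 (ENSMUSG00000076275.1, chr7:142577064-142577147, minus strand) is in an exon of H19. Mir483 (ENSMUSG00000070140.1, chr7:142654924-142654996, minus strand) is in introns of Igf2 and of Gm49394, a longer gene over the same site. The gap between the oppositely imprinted Mir675 and Mir483 is 77.8 kb.

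Own-strand reads counted to miRNA genes totalled 3577964 in library 2 and 2999032 in library 1. Levels are CPM, the counts scaled to these totals. A small RNA read covers a whole mature molecule, so CPM was not divided by length. Intervals are exact 95% binomial intervals and cover counting error only. For a count of 0 the upper limit was set at 3 counts instead, which is 0.838 CPM in library 2 and 1.00 CPM in library 1.

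The markers of library 2 go against its label of cerebral cortex, with high muscle and Hox cluster miRNAs and few neuronal ones, whereas library 1 has the neuronal markers. Each ratio below is therefore between libraries as labelled. Mir128-1, the neuronal gene of highest mean level, had 733 CPM in library 2 and 17870 CPM in library 1. Of 13 neuronal miRNA genes, 4 were at 0 in library 2 (the 3 Mir124a copies and Mir9-2) and 0 in library 1, and their summed level was 1314 CPM in library 2 and 42677 CPM in library 1. Of 9 muscle genes, 1 was at 0 in library 2 (Mir133a-2) and 6 in library 1 (both Mir1a copies, both Mir133a copies, Mir208a and Mir208b), with sums of 157119 CPM in library 2 and 73.0 CPM in library 1. Mir206 alone gave 156302 CPM in library 2 and 70.7 CPM in library 1. The copies of Mir124a, of Mir9, of Mir1a and of Mir133a each make the same mature miRNA, and reads placed at several sites were given to no gene, so their zeros and low counts say little about those miRNAs in either library. The 5 Hox cluster genes summed to 19112 CPM in library 2 and 228 CPM in library 1. Mesenchymal genes (Mir214 and the Mir199 genes) summed to 4872 CPM in library 2 and 119 CPM in library 1. Mir199a-1 was at 0 in both libraries and Mir199a-2 was at 0 in library 1. These copies also make the same mature miRNA, so their zeros are limited in the same way. Choroid plexus and ependymal genes summed to 198 CPM in library 2, where Mir449b and Mir449c were at 0, and 2387 CPM in library 1. In bulk tissue, fewer cells of a type and less RNA per cell cannot be told apart.

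**Figure D1:**
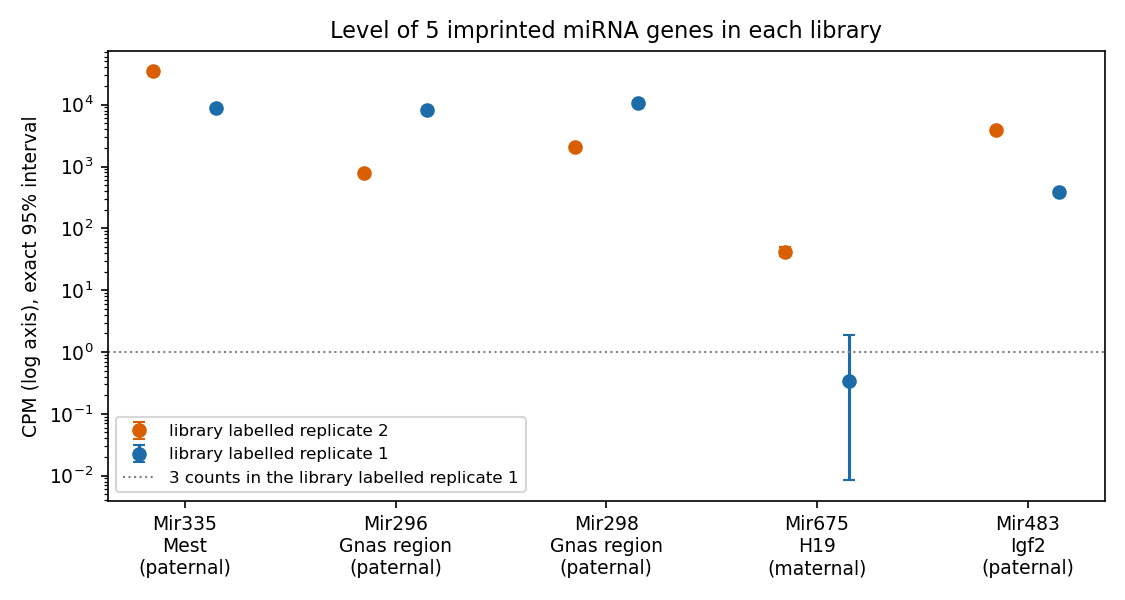
Level of each member in CPM (log axis) in the library labelled replicate 2 (orange) and the library labelled replicate 1 (blue), with exact 95% binomial intervals that are mostly smaller than the points; the dotted line marks 3 counts in library 1. Mir335, Mir675 and Mir483 are higher in library 2, and Mir296 and Mir298 are lower.

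The 5 genes held 4.14% of counts in library 2 (interval 4.12 to 4.16) and 2.79% in library 1 (2.77 to 2.81). This modest difference in the sum hid large differences in both directions. Mir335, Mir483 and Mir675 were higher in library 2, and the Gnas-region pair was lower.

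Mir335, which is processed from the Mest primary transcript, had 123752 counts in library 2 and 26818 in library 1. That is 34587 CPM (interval 34398 to 34777) in library 2, where it ranked 8 among all miRNA genes, and 8942 CPM (8836 to 9049) in library 1, where it ranked 26. It was abundant in both libraries and 3.87-fold higher in library 2 (interval 3.82 to 3.92, log2 1.95). Of the 463 genes with at least 10 counts summed, 392 had a lower ratio than Mir335.

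Mir483, within the growth factor gene Igf2, had 13938 counts in library 2 and 1169 in library 1. Its level was 3896 CPM (3831 to 3961) in library 2, at rank 42, and 390 CPM (368 to 413) in library 1, at rank 135. The ratio was 9.99-fold (interval 9.41 to 10.6, log2 3.32), and 423 of the tested genes had a lower one.

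Mir675, released from H19 and known in mouse as a product that limits placental growth, had 151 counts in library 2 and 1 in library 1. Library 2 held 42.2 CPM (35.7 to 49.5) at rank 215, and library 1 held 0.333 CPM (0.00844 to 1.86). A single count sets the lower level, so the ratio of 127-fold has an interval of 22.4 to 5032 (log2 6.98, interval 4.48 to 12.30). Mir675 was the least abundant member in both libraries.

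The Gnas-region genes went the other way. Mir298 had 7315 counts in library 2 and 31402 in library 1, which is 2044 CPM (1998 to 2092) at rank 62 and 10471 CPM (10356 to 10587) at rank 20. In library 1 it was the most abundant member. It was 5.12-fold lower in library 2 (interval 4.99 to 5.25, log2 -2.36). Mir296 had 2815 counts in library 2 and 24296 in library 1, or 787 CPM (758 to 816) at rank 86 and 8101 CPM (8000 to 8203) at rank 31. It was 10.3-fold lower in library 2 (interval 9.90 to 10.7, log2 -3.36).

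Over both libraries the order of mean level was Mir335 at 21765 ± 18134 CPM, Mir298 at 6258 ± 5958, Mir296 at 4444 ± 5172, Mir483 at 2143 ± 2479 and Mir675 at 21.3 ± 29.6 CPM (SD, n = 2). These means include library 2, whose markers go against its label; without it the level of each member is its library 1 value given above. No neighbours in this order differed by more than the larger of their SDs. Within each library, by contrast, no 2 members had overlapping counting intervals. The order in library 2 was Mir335, Mir483, Mir298, Mir296 and Mir675, and in library 1 it was Mir298, Mir335, Mir296, Mir483 and Mir675.

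**Figure D2:**
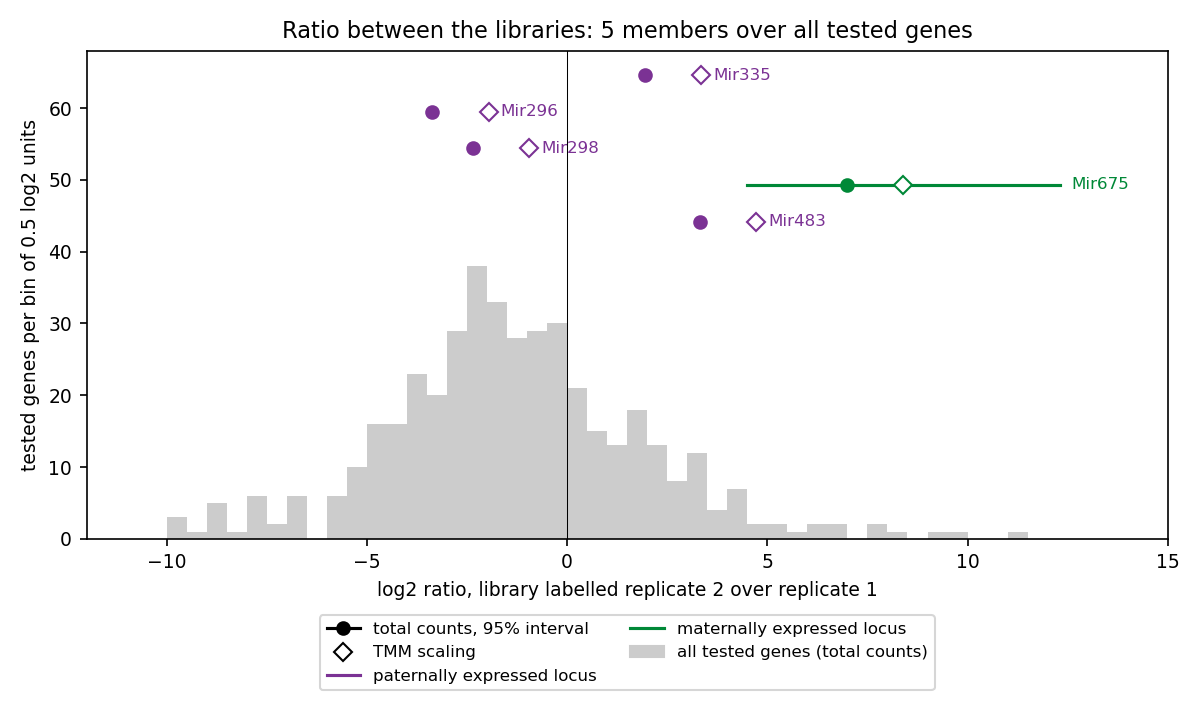
Log2 ratio of library 2 over library 1 for each member, with total counts (filled, exact 95% interval) and with TMM scaling (open), above a histogram of the ratios of all tested genes; 35 tested genes at 0 in 1 library are left out of the histogram. Mir335, Mir483 and Mir675 lie to the right of most genes, and TMM moves every gene to the right by 1.40 log2 units.

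Most tested miRNA genes were lower in library 2, which is the setting for these ratios. With total counts, 3 of the 5 members were at least 2-fold higher in library 2, where 21.6% of the 463 tested genes were. The other 2 members were at least 2-fold lower, as were 57.9% of tested genes. The members' median log2 ratio was 1.95, and that of all tested genes was -1.67, with genes at 0 in 1 library set to 3 counts. Since the members were chosen with this contrast known, nothing is read from these shares.

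The direction of all 5 members was the same under TMM scaling, which assumes that most genes do not differ and adds 1.40 to every log2 ratio. With TMM, Mir335 was 10.2-fold and Mir483 26.4-fold higher in library 2, Mir296 was 3.89-fold lower, and Mir298 was 1.94-fold lower, inside the 2-fold limit. The counts past 2-fold were then 3 members higher and 1 lower, against 34.6% and 37.6% of tested genes. Under TMM 160 of the 463 tested genes lay at least 2-fold above and 174 at least 2-fold below. Most genes thus differed, against the assumption of TMM, so its folds are given only as an alternative scaling. Under total counts 100 lay above and 268 below.

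**Figure D3:**
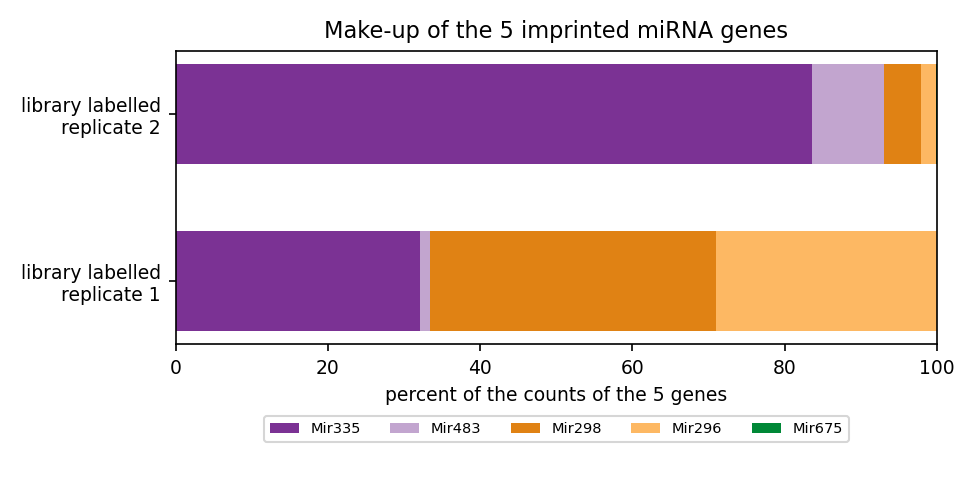
Make-up of the members' counts, in percent, in library 2 (upper bar) and library 1 (lower bar). Mir335 fills 83.6% of the upper bar and 32.0% of the lower one, the Gnas-region pair fills 6.85% and 66.6%, and Mir675 is too small to be seen.

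Ratios between members within a library do not depend on the scaling between libraries. Mir335 made up 83.6% of the members' counts in library 2 and 32.0% in library 1. Mir296 and Mir298 together made up 6.85% in library 2 and 66.6% in library 1. There were 12.2 Mir335 counts for each count of that pair in library 2 (interval 12.0 to 12.5) and 0.481 in library 1 (0.475 to 0.489). The corresponding number for Mir483 was 1.38 (1.34 to 1.41) in library 2 and 0.0210 (0.0198 to 0.0222) in library 1. Between libraries, with total counts, 2 of the 4 members at paternally expressed loci were at least 2-fold higher in library 2. The other 2 were at least 2-fold lower. Over the 463 tested genes these shares were 21.6% and 57.9%. With TMM or DESeq2 size factors only Mir296 was at least 2-fold lower, as were 37.6% of tested genes with TMM and 166 of the 463 with DESeq2. Nothing is read from these counts.

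Mir335 and Mir483, both inside genes known from embryonic mesoderm, shared a direction but not a size. The Mir335 to Mir483 ratio was 8.88 (8.72 to 9.04) in library 2 and 22.9 (21.6 to 24.3) in library 1. Mir296 and Mir298 also shared a direction, and their proportion differed between libraries. Mir298 had 2.60 times the counts of Mir296 in library 2 (2.49 to 2.71) and 1.29 times in library 1 (1.27 to 1.31). In both comparisons the intervals of the 2 libraries do not overlap, but they cover counting error only.

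Set by expressed allele, the 4 paternal members together had 147820 counts in library 2 and 83685 in library 1, which is 41314 and 27904 CPM. This is 1.48-fold higher in library 2 (interval 1.47 to 1.49). Without Mir335 the paternal sum was 6727 CPM in library 2 and 18962 CPM in library 1, so that 1 gene decides its direction with total counts. The paternal sum was 979 times the maternal Mir675 in library 2 (835 to 1156) and 83685 times in library 1 (15019 to 3305425), where it rests on 1 Mir675 count. Without Mir335 these ratios were 159 (136 to 188) in library 2 and 56867 (10206 to 2246167) in library 1. At the shared chromosome 7 locus, Mir483 had 92.3 times the counts of Mir675 in library 2 (78.6 to 109) and 1169 times in library 1 (209 to 46212). Both oppositely imprinted genes of this locus were higher in library 2.

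**Figure D4:**
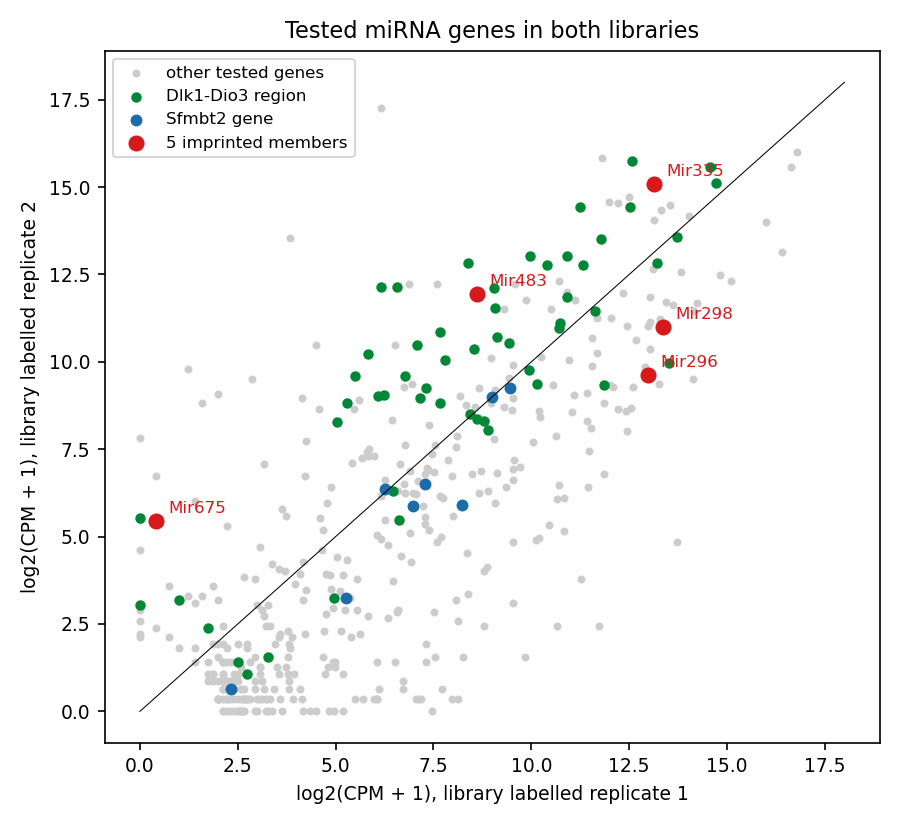
Level of the 463 tested genes as log2(CPM + 1) in library 1 (horizontal) and library 2 (vertical), with the line of equal level; the 5 members are red, 55 genes between Dlk1 and Dio3 green, 8 genes within Sfmbt2 blue and the 395 others grey. Mir335, Mir483 and Mir675 lie above the line on the side of most green points, and Mir296 and Mir298 lie below it.

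The other imprinted miRNA clusters are set beside the members as counts and levels only. The 5 members summed to 41356 CPM in library 2 and 27904 CPM in library 1. The 67 genes annotated between Dlk1 and Dio3, a region whose miRNAs are maternally expressed, summed to 300058 CPM in library 2 and 131740 CPM in library 1. Of these, 55 were tested, with 33 at least 2-fold higher, 7 at least 2-fold lower and a median log2 ratio of 1.74 (45, 2 and 3.14 with TMM). The 119 genes within Sfmbt2, known as paternally expressed, summed to 1422 CPM in library 2 and 1912 CPM in library 1. Of these, 8 were tested, with 0 higher, 4 lower and a median of -0.96 (3, 1 and 0.44 with TMM, where the sign of the median turns). Many are near-identical copies, and reads placed at several sites were given to no gene. Over the 463 tested genes, 21.6% were at least 2-fold higher and 57.9% at least 2-fold lower with total counts. With TMM these shares were 34.6% and 37.6%. Both clusters were then added to the members by assigned allele, which was not measured here. Counts at paternal loci over those at maternal loci were 0.142 (0.142 to 0.143) in library 2 and 0.226 (0.225 to 0.228) in library 1.

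The 3 Dlk1-Dio3 genes of highest mean level were all above Mir335 in library 2. Mir127, antisense to Rtl1, had 49059 CPM in library 2 and 24414 in library 1 (log2 ratio 1.01). Mir487b had 35517 CPM in library 2 and 27160 in library 1 (0.39), and Mir411 had 55423 and 6060 CPM (3.19). In Sfmbt2, Mir467d had 614 CPM in library 2 and 704 in library 1, Mir467e had 511 and 508 CPM, and Mir669c had 59.3 and 300 CPM.

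Among 290 other genes with at least 100 counts summed, likeness was measured as the distance between log2(CPM + 1) values over the 2 libraries. Mir335 was nearest to Mir126a (distance 0.73), an endothelial miRNA with 22861 CPM in library 2 and 11999 in library 1. Mir23a (0.74) and Mir23b (0.77) were almost as near. Mir483 was nearest to Mir376c (0.46) and Mir154 (0.60), both of the Dlk1-Dio3 region, and then to Mir27b. Mir376c had 4397 CPM in library 2 and 524 in library 1.

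Mir675 was nearest to Mir199a-2 (0.42), a mesenchymal miRNA gene with 43.3 CPM in library 2 and none in library 1. Mir675 had 1 count in library 1, and reads that Mir199a-2 shares with Mir199a-1 were given to no gene. This nearness thus rests on values near the floor in library 1. Mir199a-2 was followed by Mir3544 of the Dlk1-Dio3 region, and then by Mir450-1 on the X chromosome. Mir298 was nearest to Mir17 (0.23), a gene of the proliferation-linked miR-17-92 cluster with 2383 CPM in library 2 and 10005 in library 1, and then to Mir30d and Mir149. Mir296 was nearest to Mir324 (0.24), with 923 CPM in library 2 and 7718 in library 1, and then to Mir181d and Mir342. The members had no nearest gene in common, but the distance uses absolute levels, which already differed between the members.

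With total counts, Mir335, Mir483 and Mir675 had the direction of the summed muscle, Hox and mesenchymal markers (157119, 19112 and 4872 CPM in library 2, and 73.0, 228 and 119 CPM in library 1). The summed vessel markers (46995 CPM in library 2 and 17107 in library 1) and red blood cell markers (153 CPM in library 2 and 45.3 in library 1) had this direction too. Mir296 and Mir298 had the direction of the neuronal markers (1314 CPM in library 2 and 42677 in library 1) and of the choroid plexus and ependymal markers (198 CPM in library 2 and 2387 in library 1). Mir483 and the sum of the choroid plexus and ependymal markers had opposite directions. Of the 5 tested genes in that list, 4 were at least 2-fold lower in library 2, as were 57.9% of all tested genes. The 1 higher gene was Mir211, with 8.94 CPM in library 2 and 1.33 in library 1, the direction of Mir483. With 2 libraries, any gene takes one direction or the other, and the part of these cells in the members' ratios was not tested.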

How the data were processed

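For each library the authors deposited a table of raw counts with 3 columns, a row for each miRNA hairpin gene. Notes beside the tables name mm10 as assembly and M21 as GENCODE release. The sources used here do not give an aligner or a counting tool. Column roles (either, own, opposite strand) follow the layout of STAR gene counts and were inferred. Own-strand counts were used. Entries without a gene stayed out of library sizes: unplaced, several-site and outside-gene reads were 6.11%, 39.8% and 1.47% in library 2 and 18.4%, 46.1% and 5.55% in library 1.

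All 2202 identifiers matched GENCODE. Ratios are library 2 over library 1 with no prior, with Clopper-Pearson intervals, over 463 genes with at least 10 counts summed. No test was run, because each side has 1 library. Scaling alternatives were TMM (edgeR 4.0.16, factors 0.615 in library 2 and 1.63 in library 1) and DESeq2 1.42.0 size factors. Scripts ran in R 4.3.3 and Python 3.11.15 (scipy 1.17.1, numpy 2.4.6, matplotlib 3.10.9, pandas 2.3.3).

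The members and lists were chosen with earlier results of these data known. Named genes are the 5 members, the 3 genes nearest each member and the miRNA genes within 1 Mb of a member. Also named are the 3 genes of highest mean CPM in the Dlk1-Dio3 and Sfmbt2 lists. From the marker lists, the highest of the neuronal, muscle and mesenchymal genes were named. Other markers, among them those at 0, were named after their values were seen.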

Additional observations from a re-analysis of the deposited data

How the results depend on the processing

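The signs of the 5 members' log2 ratios were the same under all 6 alternatives (TMM, DESeq2 size factors, all reads as library size, no most abundant gene, unstranded counts, a prior of 1 CPM); their sizes depend on the scaling. With TMM the ratios were 3.36 (Mir335), -1.96 (Mir296), -0.95 (Mir298) and 4.72 (Mir483). DESeq2 size factors gave 3.50, -1.81, -0.81 and 4.87, and all reads as library size gave 2.77, -2.55, -1.54 and 4.14. Without each library's most abundant gene, Mir335 had 2.02, Mir296 -3.29 and Mir298 -2.28, and with unstranded counts they had 2.05, -3.27 and -2.26, and Mir483 3.42. Every alternative for Mir675 lay inside its counting interval.

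The members' share of counts was 4.69% in library 2 and 2.96% in library 1 with unstranded counts, and 0.677% and 1.90% without Mir335. The paternal to maternal ratio in library 2 was 159 without Mir335. Members at least 2-fold lower were 1 with TMM and 1 with DESeq2 size factors, in place of 2, since Mir298 came inside the limit. Of all genes, 160 (TMM), 171 (DESeq2) and 169 (no filter) were at least 2-fold higher, in place of 100. At least 2-fold lower were 174 (TMM), 166 (DESeq2), 446 (no filter) and 144 (at least 100 counts), in place of 268. No paired analysis was possible because there is only 1 group.

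Leaving out a library leaves the other's level and no ratio. Depth limits Mir675 in library 1, where it had 1 count.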

Other observations

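Within 1 Mb of Mir335, 6 other miRNA genes are annotated. Mir182 had 492 counts in library 2 and 125 in library 1, Mir183 had 417 and 353, and Mir29a had 389 and 461. Mir96 had 39 counts in library 2 and 2 in library 1, Mir29b-1 had 3 and 13, and Gm23049 had 0 in both. Beside 123752 Mir335 counts in library 2 and 26818 in library 1, these neighbours are low in both libraries. Around the Gnas-region pair, the other annotated miRNA genes within 1 Mb (Mir6340 and Gm27591) had 0 counts in both libraries. Near Mir675 and Mir483, Mir7063 had 1 count in library 2 and 17 in library 1, Mir3104 had 0 and 9, and Mir7064 had 0 in both.

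The opposite-strand column held 1 count over all 5 members, at Mir335 in library 1.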
